A study of Mus musculus with 15 samples.

Results

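The 10 genes described here encode the core of antigen presentation by the major histocompatibility complex (MHC), namely H2-K1, H2-D1, B2m, Tap1, Tap2 and Psmb8 of the class I pathway and Cd74, H2-Aa, H2-Ab1 and H2-Eb1 of the class II pathway. They were listed by their symbols, with earlier results of these data known, and matched to the gene identifiers of the count tables. All 10 were found among the 55401 genes counted, and all 10 passed the filter on low counts that left 19536 genes for testing. In Tg2576 mice the fitted level of each of the 10 genes, averaged over both treatments, was above that in WT mice, and 2 of the 10, B2m and Psmb8, passed the threshold of an unadjusted p under 0.01, as did 3.85% of all genes tested. None of the 10 passed an adjusted p of 0.05. For DHA, 0 of the 10 passed the threshold in either genotype, beside 1.38% of all genes in WT and 0.353% in Tg2576 mice.

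The RNA came from the hippocampus of 15 female mice, with 1 library per mouse. The paper's methods give their age as 18 to 20 months, and its discussion names a higher approximate age. Tg2576 mice, labelled Tg2576 +/+, overexpress the human amyloid precursor protein with the Swedish mutation from the prion promoter and form amyloid plaques with age. WT mice, labelled Tg2576 -/-, were their littermates without the transgene. Mice were given docosahexaenoic acid (DHA, 450 mg/kg, in sesame oil) or the sesame oil alone as vehicle (Veh) by daily gavage for 5 weeks. The groups were WT-Veh (4 mice), WT-DHA (4 mice), Tg2576-Veh (4 mice) and Tg2576-DHA (3 mice). The comparisons asked how genotype and DHA, each alone and in combination, change hippocampal expression. The strain background of the mice was not given in the sources used here.

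Class I molecules sit on nearly all nucleated cells and show peptides from inside the cell to CD8+ T cells. A heavy chain (H2-K1 or H2-D1 in the mouse) pairs with beta-2-microglobulin, the product of B2m. Its peptides are cut by the proteasome, in which Psmb8 encodes an interferon-inducible subunit of the immunoproteasome, and are carried into the endoplasmic reticulum by the transporter made of TAP1 and TAP2. Class II molecules show peptides taken up from outside the cell to CD4+ T cells. Their alpha and beta chains come from H2-Aa, H2-Ab1 and H2-Eb1, and the invariant chain from Cd74 guides them and blocks their groove until they are loaded. In the brain, class II is made mainly by microglia in reactive states and by macrophages and dendritic cells at the borders, such as the meninges and the choroid plexus. Both classes are induced by interferon gamma.

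Of the 10 genes, 8 lie in the MHC region of chromosome 17, and their exon models there follow the annotation GENCODE M25 of GRCm38. H2-K1 spans 33996017 to 34000347 on the minus strand at one side of the region and H2-D1 spans 35262730 to 35267499 on the plus strand farther along it. Between them lie Tap1 (34187553 to 34197225), Psmb8 (34197721 to 34201454), Tap2 (34203527 to 34216321), H2-Ab1 (34257689 to 34269419), H2-Aa (34282744 to 34287823) and H2-Eb1 (34305867 to 34316674). B2m lies apart on chromosome 2 (122147686 to 122153083, plus strand).

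The stretches of 200 bases before the start of 5 genes are printed because they hold motifs known from the control of MHC genes. The start is that of a RefSeq transcript, which for H2-D1 lies inside the GENCODE span given above. The first 3 belong to class I and the other 2 to class II. They are RefSeq sequences of GRCm38.p6 in the direction of the gene, at chr17:34000348-34000547 (minus strand) for H2-K1, chr17:35262894-35263093 (plus) for H2-D1, chr2:122147487-122147686 (plus) for B2m, chr17:34287824-34288023 (minus) for H2-Aa and chr17:34305667-34305866 (plus) for H2-Eb1. Capitals mark the motifs found.
H2-K1: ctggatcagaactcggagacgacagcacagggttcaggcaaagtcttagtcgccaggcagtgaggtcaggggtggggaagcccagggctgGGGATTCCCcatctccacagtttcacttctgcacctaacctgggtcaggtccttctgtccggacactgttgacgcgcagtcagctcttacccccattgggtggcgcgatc
H2-D1: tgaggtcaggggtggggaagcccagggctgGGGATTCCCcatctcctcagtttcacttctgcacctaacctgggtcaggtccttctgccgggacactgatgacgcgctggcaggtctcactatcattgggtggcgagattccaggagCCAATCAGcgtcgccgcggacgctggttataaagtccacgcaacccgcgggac
B2m: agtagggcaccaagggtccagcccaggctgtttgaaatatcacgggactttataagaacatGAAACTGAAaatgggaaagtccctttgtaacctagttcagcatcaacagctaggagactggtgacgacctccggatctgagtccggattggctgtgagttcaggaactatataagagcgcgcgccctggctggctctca
H2-Aa: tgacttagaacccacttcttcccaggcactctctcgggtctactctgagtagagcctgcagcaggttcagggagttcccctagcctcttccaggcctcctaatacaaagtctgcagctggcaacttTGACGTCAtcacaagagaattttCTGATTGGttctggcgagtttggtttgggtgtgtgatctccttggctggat
H2-Eb1: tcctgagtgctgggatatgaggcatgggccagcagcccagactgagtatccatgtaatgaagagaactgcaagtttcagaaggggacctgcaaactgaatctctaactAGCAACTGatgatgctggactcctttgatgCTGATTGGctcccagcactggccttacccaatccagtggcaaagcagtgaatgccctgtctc
The motifs were searched on both strands in the same 200 bases of 32851 promoters. The NF-kB site GGGATTCCC, bound by the inflammatory factor NF-kB, was found in H2-K1 and H2-D1 and in 0.213% of all promoters. The Y box CTGATTGG, bound by the factor NF-Y, was found in H2-Aa and H2-Eb1, on the other strand in H2-D1, and in 3.54% of all promoters. The X2 box TGACGTCA was found in H2-Aa (1.47% of promoters), and the X1 box core AGCAACNG in H2-Eb1 (3.49%). These boxes are the known platform on which the class II regulator CIITA acts. The interferon-stimulated response element core GAAANNGAA was found in B2m (5.57% of promoters). Of the 10 genes, 7 were in the promoter table. In Psmb8 the letters TTCNNNGAA of the gamma-activated sequence were present, as in 5.49% of promoters, and in Tap1 none of the 6 motifs was found. A match describes these letters alone.

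Total counts ranged from 17372864 to 46596489 per mouse (median 25645977). The genotype labels were checked with App, the mouse gene of the amyloid precursor protein, on which part of the reads of the human transgene can be counted. App was at 2075 to 2785 CPM (counts scaled to the library size) in the 7 Tg2576 mice and at 1571 to 1786 CPM in the 8 WT mice, without overlap. Markers of hippocampal neurons summed to 2959 to 4151 CPM in every mouse. The 6 markers of choroid plexus, the tissue in the ventricles that makes cerebrospinal fluid, ranged from 60.96 to 5816 CPM, so the libraries held very different amounts of it. In bulk tissue, fewer cells of a type and less RNA per cell cannot be told apart.

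Levels of different genes were compared per length, as RPKM (CPM per kilobase of exon). B2m was by far the most abundant of the 10 genes, with a mean over the 15 mice of 87.7 RPKM ± 20.7 (SD). The heavy chains H2-D1 (19.1 RPKM ± 8.06) and H2-K1 (12.8 RPKM ± 4.93) followed, and their ranges overlapped. Cd74 stood at 4.32 RPKM ± 2.08 and Tap2 at 2.93 RPKM ± 0.416. H2-Eb1 (1.42 RPKM ± 0.600), Tap1 (1.37 RPKM ± 0.584) and Psmb8 (1.05 RPKM ± 0.292) differed by less than their spread. H2-Ab1 (0.794 RPKM ± 0.377) and H2-Aa (0.606 RPKM ± 0.320) were lowest and also differed by less than their spread. Thus, the message of the light chain B2m stood above that of its heavy chains, and that of Cd74 above those of the class II chains it binds. In the 4 groups the order of the means differed in 2 places, between Cd74 and Tap2 and between H2-Eb1 and Tap1.

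**Figure D1:**
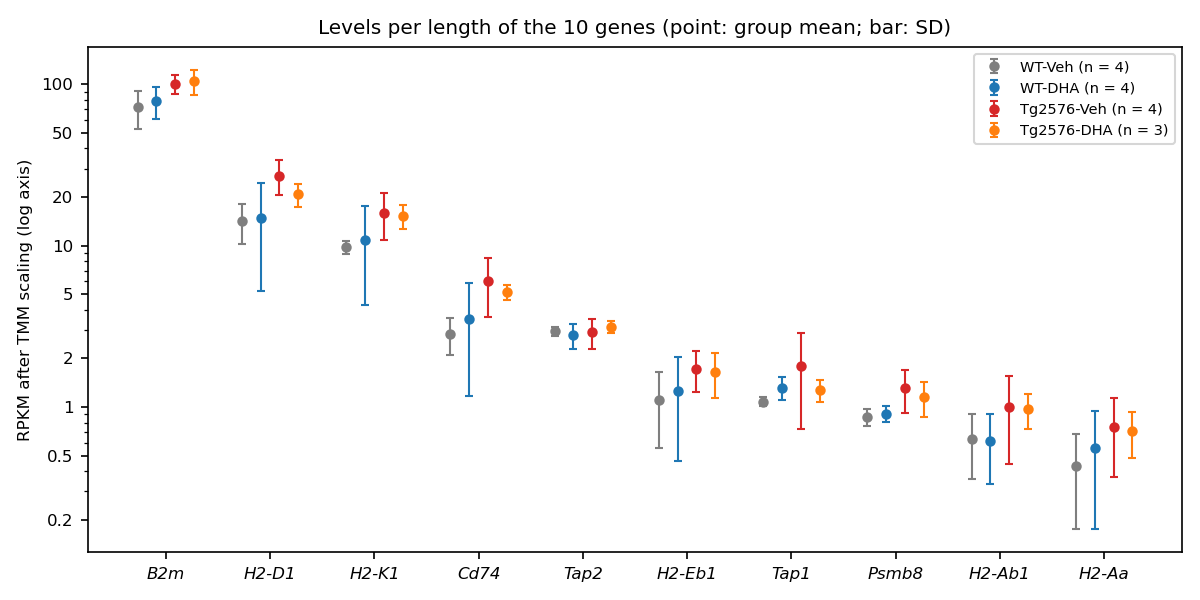
Level per length of each gene as mean RPKM (log axis) in WT-Veh, WT-DHA, Tg2576-Veh (4 mice each) and Tg2576-DHA (3 mice), with bars for the SD. B2m stands at the top in every group and H2-Aa at the bottom, with overall means of 87.7 and 0.606 RPKM.

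The counting leaves some of these values uncertain. The single counting command recorded in the tables used no strand setting and no option for reads in several places or genes, which by default are left out. In Psmb8, 14.7% of the exon bases overlap the gene model Gm20496, in Tap2 18.5% overlap Gm20496 and Gm15821, and in Tap1 3.87% overlap Psmb9. For H2-K1, 9.63% of 50-base windows of its transcripts occur letter for letter in another gene, the most in H2-Q10, and for H2-D1 12.8% do, the most in H2-Q1. With 100-base windows these shares were 0.957% and 3.59%. B2m, Cd74, H2-Ab1 and H2-Eb1 had no such windows at either length.

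B2m was at 50.5, 56.6, 54.3 and 86.2 CPM in the 4 WT-Veh mice and at 53.1, 86.5, 58.8 and 71.2 CPM in the 4 WT-DHA mice. It was at 84.3, 88.3, 100.3 and 71.7 CPM in the Tg2576-Veh mice and at 78.3, 83.6 and 107.6 CPM in the Tg2576-DHA mice. One WT mouse of each treatment thus lay within the range of the Tg2576 mice, and all others lay below it. Averaged over both treatments, B2m was 1.36-fold higher in Tg2576 mice (log2 fold change 0.44, 95% interval 0.17 to 0.72, SE 0.130). The edgeR quasi-likelihood test gave an unadjusted p = 0.00353 (adjusted p = 0.179) and an exact permutation test within the treatments p = 0.0106. The difference was 0.48 (SE 0.178, adjusted p = 0.361 by edgeR) under vehicle and 0.41 (SE 0.191, adjusted p = 0.714) under DHA, both short of the threshold. The averaged difference passed in 14 of the 15 fits with a mouse omitted, the exception being that without Tg2576-DHA replicate 3 (0.37, adjusted p = 0.309 by edgeR).

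Psmb8 was at 2.39, 3.09, 3.14 and 3.04 CPM in WT-Veh mice and at 3.03, 3.28, 3.36 and 2.59 CPM in WT-DHA mice. It was at 3.80, 4.07, 6.35 and 3.49 CPM in Tg2576-Veh mice and at 3.31, 3.34 and 4.99 CPM in Tg2576-DHA mice. Under vehicle the genotypes did not overlap, and under DHA 2 of the 3 Tg2576 mice lay within the WT range. Averaged over both treatments, Psmb8 was 1.39-fold higher in Tg2576 mice (log2 fold change 0.47, 95% interval 0.14 to 0.81, SE 0.159). The unadjusted edgeR p = 0.00863 (adjusted p = 0.251) stood beside an exact permutation p = 0.00163. The 54 to 148 reads per mouse make this the class I gene with the fewest reads. The call was fragile: with each mouse omitted in turn it was lost in 10 of 15 cases. These were the omission of any of the 8 WT mice, of Tg2576-Veh replicate 3 (0.36, SE 0.147, adjusted p = 0.425 by edgeR) or of Tg2576-DHA replicate 3 (0.36, SE 0.164, adjusted p = 0.410).

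Averaged over the treatments, 3.85% of all genes tested passed the threshold, an unadjusted p under 0.01, for genotype. Of the 10 genes, 2 passed it. A p under 0.05 by edgeR was found for 6 of the 10, beside 2265 of all 19536 genes tested. The lowest adjusted p of the 10 was 0.179, so none passed an adjusted p of 0.05, beside 40 of all genes. All 10 differences were above 0, with a median log2 fold change of 0.54, where the median of all genes was -0.0044. Under vehicle alone, 3.09% of all genes and 0 of the 10 passed, 9 of the 10 were above 0 and the median was 0.69. There, 5 of the 10 had an edgeR p under 0.05, beside 2100 of all genes. Under DHA alone, 1.75% of all genes and 0 of the 10 passed, 9 were above 0 and the median was 0.41. In that comparison 1 of the 10 had an edgeR p under 0.05, beside 1341 of all genes. Without WT-DHA replicate 2, H2-K1, H2-D1 and B2m passed in both comparisons, beside 578 of all genes under vehicle and 338 under DHA. That mouse is in neither group compared under vehicle and enters there only through the fit shared by all 15 mice. Under vehicle, other alternatives given in the closing section also moved the count from 0.

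**Figure D2:**
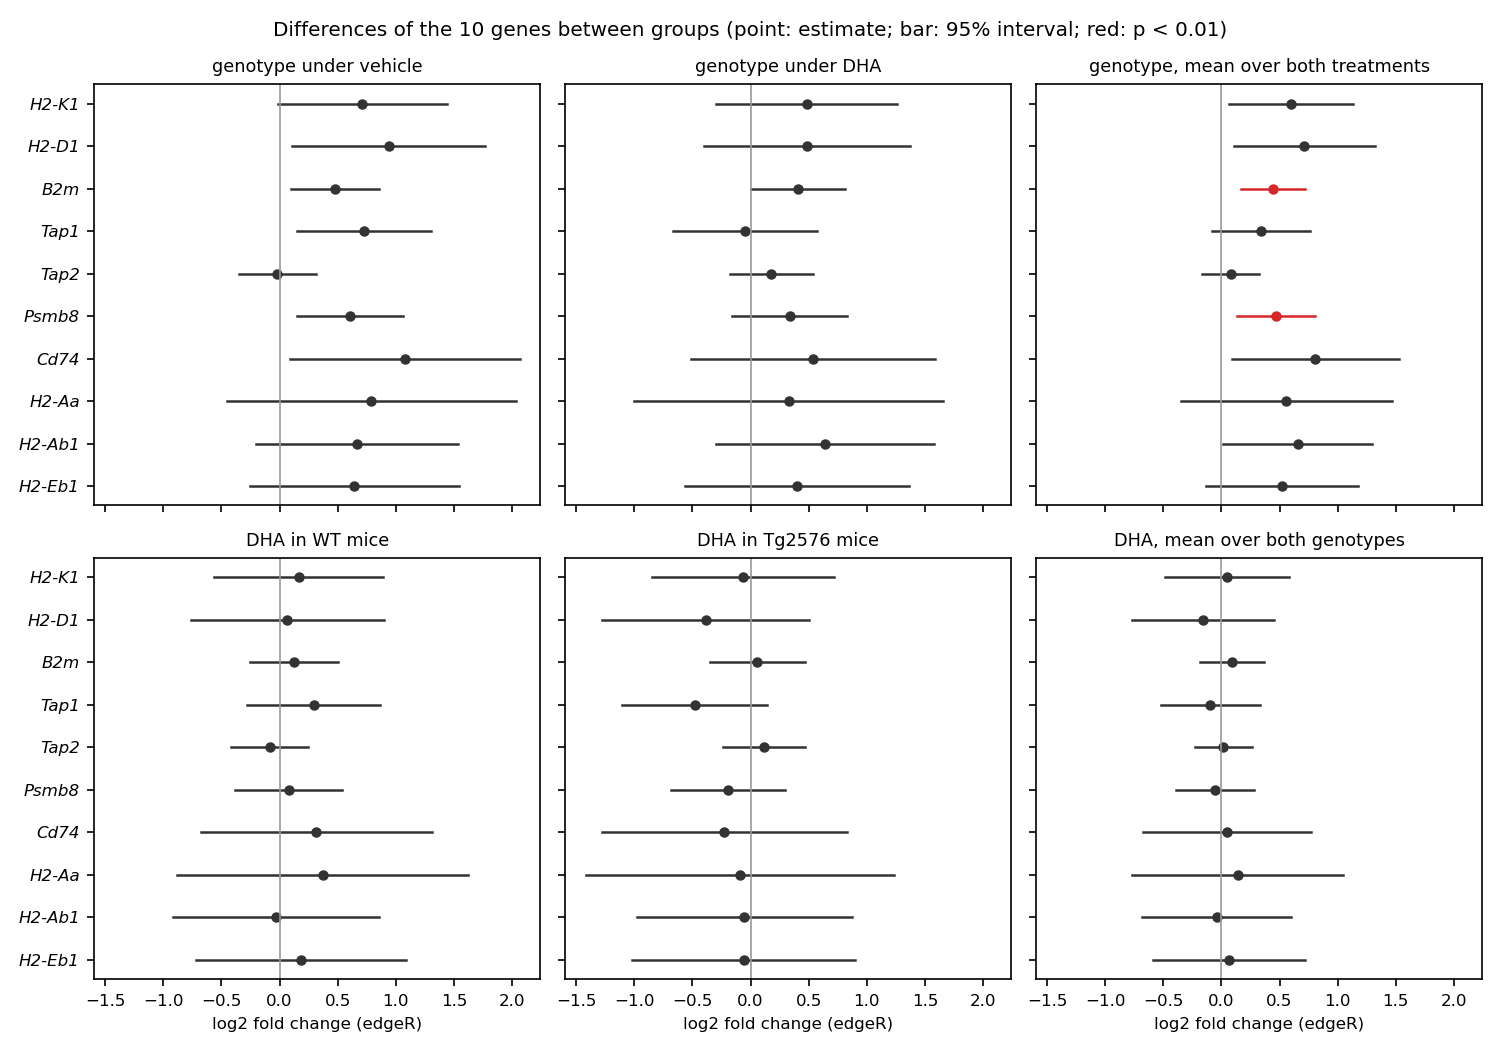
Log2 fold change of each gene by edgeR (points) with its 95% interval (bars) for genotype (Tg2576 against WT, upper row) and DHA (against vehicle, lower row), with the 2 that passed p under 0.01 in red. The genotype differences averaged over both treatments run from 0.08 for Tap2 to 0.81 for Cd74, and the DHA differences lie on both sides of 0.

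The heavy chain H2-D1 was at 35.4, 44.4, 44.0 and 22.6 CPM in WT-Veh mice and at 21.9, 72.3, 18.6 and 39.5 CPM in WT-DHA mice. It was at 75.3, 71.8, 86.6 and 46.4 CPM in Tg2576-Veh mice and at 60.6, 44.1 and 56.1 CPM in Tg2576-DHA mice. Under vehicle the genotypes did not overlap. The difference was 1.92-fold there (log2 fold change 0.94, SE 0.382, unadjusted p = 0.0300, adjusted p = 0.399 by edgeR), with an exact permutation p of 0.0286, the smallest that 4 mice against 4 can give. Averaged over both treatments it was 1.64-fold (0.71, 95% interval 0.11 to 1.32, adjusted p = 0.353 by edgeR), which missed the threshold.

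H2-K1 was at 26.02, 31.4, 30.7 and 26.8 CPM in WT-Veh mice and at 18.2, 60.5, 21.2 and 28.2 CPM in WT-DHA mice. It was at 60.2, 41.4, 58.7 and 28.1 CPM in Tg2576-Veh mice and at 37.3, 44.8 and 52.8 CPM in Tg2576-DHA mice. Of the 8 WT mice, WT-DHA replicate 2 was the highest, above every Tg2576 mouse, and Tg2576-Veh replicate 4 lay within the WT-Veh range. Averaged over both treatments the difference was 1.51-fold (log2 fold change 0.60, 95% interval 0.07 to 1.13, SE 0.246, adjusted p = 0.371 by edgeR), which missed the threshold.

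WT-DHA replicate 2 was the highest of its group for 8 of the 10 genes and decided several of these values. Without that mouse, the average genotype difference of H2-K1 was 0.86 (SE 0.159, adjusted p = 0.0698 by edgeR) and that of H2-D1 was 0.97 (SE 0.205, adjusted p = 0.105), and both passed. B2m (0.52, adjusted p = 0.139 by edgeR) and Cd74 (1.03, adjusted p = 0.238) passed as well, while Psmb8 (0.49, adjusted p = 0.298) did not pass. Thus 4 of the 10 genes were called, beside 676 of all genes. Under DHA, the differences without it were 0.998 for H2-K1 (adjusted p = 0.479 by edgeR) and 1.01 for H2-D1 (adjusted p = 0.532), against 0.48 for each with it. Its App level was 1651 CPM and its choroid plexus markers summed to 350 CPM, both within the range of the other WT mice. It was the highest of the 8 WT mice for the summed markers of leptomeninges (71.8 CPM, the next 54.5 CPM) and of perivascular macrophages (6.52 CPM, the next 6.46 CPM). It also led the 8 WT mice for the summed interferon response genes (503.8 CPM, the next 494.7 CPM). The same held for other class I pathway genes (982.9 CPM, the next 962.0 CPM). Its T and NK cell markers summed highest of all 15 mice (5.48 CPM, the next 5.12 CPM). Its markers of B and plasma cells summed lowest of the 8 WT mice (24.1 CPM, the next 27.1 CPM). Its homeostatic microglial genes (351 CPM) lay within the range of the other WT mice. Why this mouse was high was not tested. The mouse stayed in all values unless stated.

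The peptide transporter is a pair of subunits, and neither passed the threshold. Tap1 was at 6.02, 5.36, 6.21 and 6.01 CPM in WT-Veh mice, at 7.17, 8.69, 7.13 and 5.90 CPM in WT-DHA mice and at 5.86, 7.12 and 8.05 CPM in Tg2576-DHA mice. In Tg2576-Veh mice it was at 18.5, 5.75, 7.64 and 7.47 CPM, so that replicate 1 held a level far above that of every other mouse. Under vehicle the genotypes differed by 0.73 on the log2 scale (SE 0.272, adjusted p = 0.360 by edgeR), and by 0.23 (SE 0.168, adjusted p = 0.559) without that mouse. Tap2 was at 8.20 to 13.95 CPM over all 15 mice and had the lowest SD within groups of the 10 genes, with an average genotype difference of 0.08 (95% interval -0.16 to 0.32). A difference between Tap1 and Tap2 was not tested.

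Cd74, at 60803848 to 60812652 on the plus strand of chromosome 18, encodes the invariant chain and had the most reads of the class II genes. It was at 3.92, 3.62, 6.25 and 5.26 CPM in WT-Veh mice and at 1.06, 10.4, 4.91 and 7.24 CPM in WT-DHA mice. It was at 13.6, 13.4, 6.53 and 6.74 CPM in Tg2576-Veh mice and at 7.87, 8.33 and 9.67 CPM in Tg2576-DHA mice. Under vehicle the genotypes did not overlap, although the closest mice differed by less than the spread within the Tg2576-Veh group. The difference was 2.11-fold there (log2 fold change 1.08, 95% interval 0.09 to 2.07, SE 0.462, adjusted p = 0.420 by edgeR), with an exact permutation p of 0.0286. Under DHA it was 0.54 (95% interval -0.51 to 1.59).

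Together, Cd74, H2-D1 and Psmb8 made 3 of the 10 genes without overlap between the genotypes under vehicle, where 2.18% of all genes were without overlap and higher in Tg2576-Veh mice. Under DHA 0 of the 10 were without overlap, where 3.90% of all genes were so and higher in Tg2576-DHA mice. For the other 7 genes under vehicle, at least 1 mouse crossed over.

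The class II chains had the lowest mean CPM of the 10 genes, with 4 to 144 reads per mouse, although H2-Eb1 was not among the lowest per length. H2-Aa, an alpha chain, was at 1.98, 0.193, 2.30 and 2.04 CPM in WT-Veh mice and at 0.528, 3.96, 2.48 and 1.53 CPM in WT-DHA mice. It was at 3.52, 4.62, 1.55 and 1.79 CPM in Tg2576-Veh mice and at 1.80, 3.48 and 2.79 CPM in Tg2576-DHA mice. The lowest value rests on 4 reads, and its highest mouse held 23.9 times the level of the lowest. H2-Ab1, a beta chain, was at 1.55, 0.773, 2.46 and 1.68 CPM in WT-Veh mice and at 0.572, 2.30, 1.65 and 1.82 CPM in WT-DHA mice. It was at 2.33, 4.65, 1.76 and 1.54 CPM in Tg2576-Veh mice and at 2.23, 3.19 and 2.05 CPM in Tg2576-DHA mice. For both chains the Tg2576 mice lay mostly within the range of the WT mice.

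H2-Eb1, the other beta chain, was at 1.68, 1.16, 3.61 and 2.10 CPM in WT-Veh mice and at 0.704, 4.28, 2.89 and 1.82 CPM in WT-DHA mice. It was at 3.97, 4.36, 2.53 and 2.56 CPM in Tg2576-Veh mice and at 2.27, 4.25 and 3.13 CPM in Tg2576-DHA mice. The genotypes overlapped under both treatments. Averaged over the treatments, the genotype differences of the chains were 0.56 for H2-Aa (95% interval -0.35 to 1.47), 0.65 for H2-Ab1 (0.01 to 1.29) and 0.52 for H2-Eb1 (-0.14 to 1.18). None passed the threshold (adjusted p = 0.681, 0.418 and 0.561 by edgeR), and the intervals include differences near 0 as well as large ones.

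**Figure D3:**
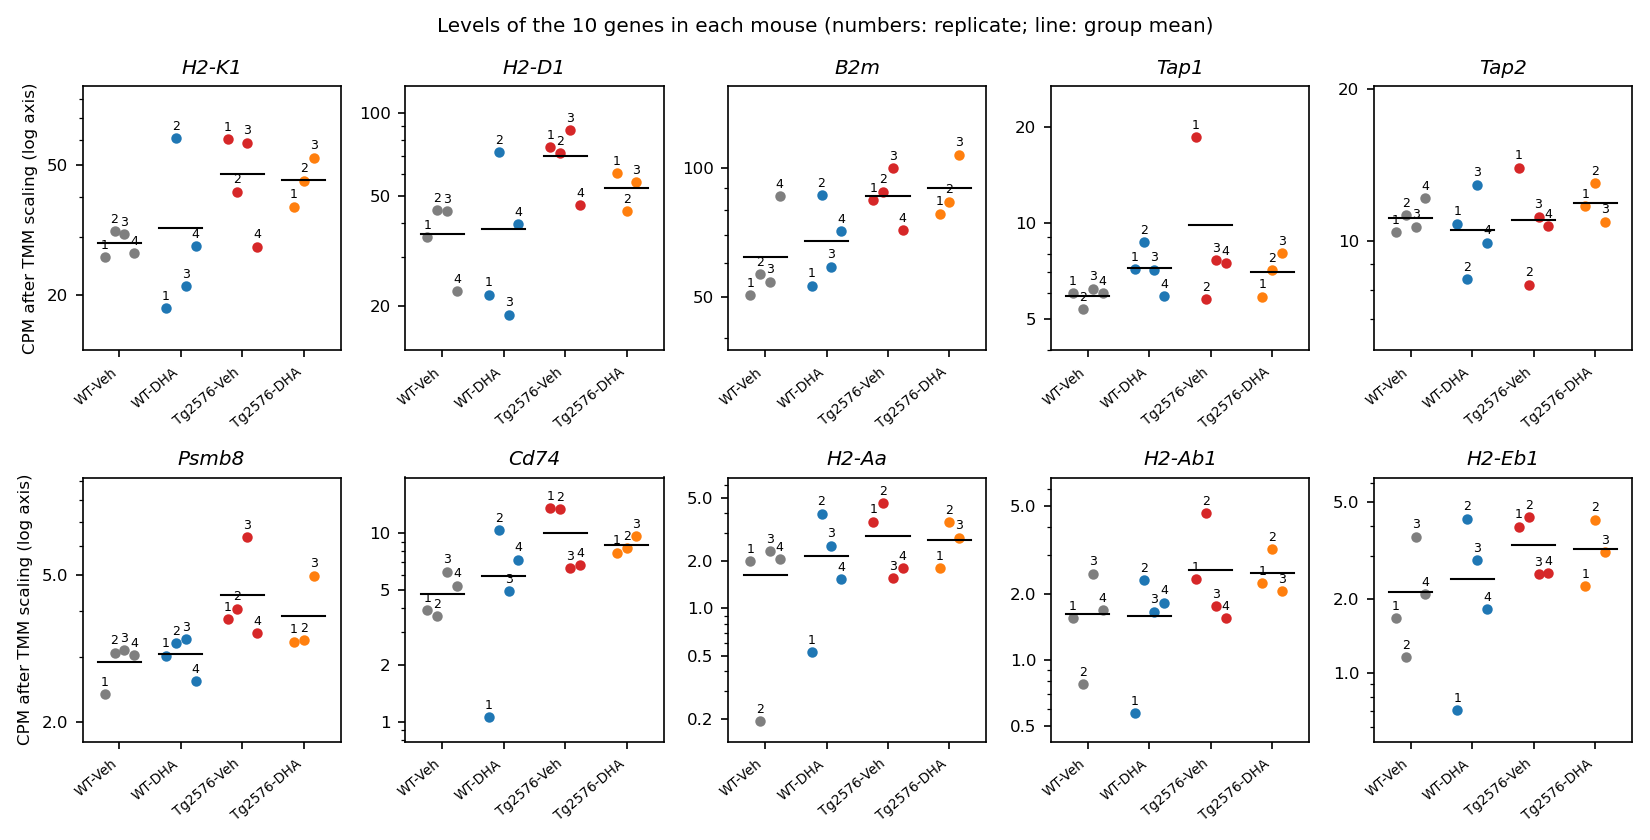
CPM after TMM scaling (log axis) of each gene in each mouse, by group, with the replicate number above each point and a line at the group mean. WT-DHA replicate 2 lies at the top of its group for 8 of the 10 genes and WT-DHA replicate 1 at the bottom for 6, and Tap1 in Tg2576-Veh replicate 1 stands alone at 18.5 CPM.

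Mice that were high for one class II gene were mostly high for the others, with exceptions among the Tg2576 mice. WT-Veh replicate 3 and WT-DHA replicate 2 were the highest of their groups for all 4 class II genes, and WT-Veh replicate 2 and WT-DHA replicate 1 the lowest for all 4. In contrast, Tg2576-DHA replicate 3 was the highest of its group for Cd74 (9.67 CPM) and the lowest for H2-Ab1 (2.05 CPM). The level of each class II gene followed the mean of the 4 with a Pearson r of 0.92 to 0.97 over the 15 mice, which share that mean. Summed over the 4 genes, the level ran from 2.86 CPM in WT-DHA replicate 1 to 27.1 CPM in Tg2576-Veh replicate 2. The spread within groups differed among the 10 genes. The SD of log2 CPM within groups was 1.09 for H2-Aa, above that of 97.5% of all genes, and 0.82 for Cd74 (92.4%). It was 0.57 for H2-D1 (80.7%), 0.50 for H2-K1 (75.9%), 0.28 for B2m (55.6%) and 0.22 for Tap2 (44.6%). Among the 1000 genes nearest in mean level, 99.4% had a smaller SD than H2-D1 and 99.2% a smaller one than H2-K1, against 52.5% for Tap2 and 26.7% for Psmb8.

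DHA moved none of the 10 genes past the threshold. In WT mice, 1.38% of all genes and 0 of the 10 passed, 8 of the 10 were above 0 and 2 below, and the median was 0.14 on the log2 scale. In Tg2576 mice, 0.353% of all genes and 0 of the 10 passed, 2 were above 0 and 8 below, and the median was -0.08. Averaged over both genotypes, 0.870% of all genes and 0 of the 10 passed, and the adjusted p was 0.9998 for each by edgeR. The DHA and vehicle mice overlapped for all 10 genes in both genotypes, where 2.78% of all genes in WT mice and 1.69% in Tg2576 mice were higher under DHA without overlap. The share of all genes lower under DHA without overlap was not counted.

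How large a DHA effect these mice leave possible differed by gene. Averaged over both genotypes, the 95% interval of the log2 fold change was -0.23 to 0.26 for Tap2, -0.18 to 0.37 for B2m and -0.40 to 0.28 for Psmb8. For the heavy chains it was -0.48 to 0.58 (H2-K1) and -0.77 to 0.45 (H2-D1). The class II genes were least bounded, with -0.67 to 0.77 for Cd74 and -0.77 to 1.05 for H2-Aa. For the difference of the DHA effect between the genotypes (interaction), 0.829% of all genes and 0 of the 10 passed the threshold, and 0 of all genes had an adjusted p under 0.05 by edgeR, with 1002 at an unadjusted p under 0.05. The lowest p was that of Tap1 (interaction -0.77, SE 0.401, adjusted p = 0.845 by edgeR), whose Tg2576-Veh mean holds the mouse at 18.5 CPM. As the DHA and genotype comparisons share mice, their values are not independent of each other.

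Other genes of the class I pathway were looked up as a list of 21, all tested. Averaged over the treatments, 19 of the 21 were above 0 in Tg2576 mice, with a median log2 fold change of 0.26, and 1 passed the threshold. It was Mr1, a class I-like molecule that presents metabolites of riboflavin, with means of 5.89, 4.88, 6.94 and 7.59 CPM in WT-Veh, WT-DHA, Tg2576-Veh and Tg2576-DHA mice (0.44, SE 0.138, adjusted p = 0.217 by edgeR). Under vehicle 0 passed, and under DHA 1 did. Psmb9, the immunoproteasome subunit next to Tap1, had means of 2.59, 2.598, 3.31 and 3.29 CPM and did not pass, nor did Nlrc5, the known activator of class I genes, with 1.94, 1.90, 2.63 and 2.70 CPM. For DHA, 0 of the 21 passed in either genotype.

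Of 20 other genes of the class II pathway, 18 were tested, and 3 passed, all higher in Tg2576 mice, averaged over the treatments. They are proteins of the lysosome rather than class II molecules. Ctss, which encodes cathepsin S, the protease that trims the invariant chain, had means of 61.8, 57.7, 90.7 and 98.0 CPM in WT-Veh, WT-DHA, Tg2576-Veh and Tg2576-DHA mice. Its difference was 0.66 (SE 0.129, adjusted p = 0.0492 by edgeR). Ctsl, the related cathepsin L, differed by 0.26 (SE 0.0842, adjusted p = 0.238 by edgeR). Ifi30, a lysosomal thiol reductase that unfolds antigens, differed by 0.40 (SE 0.129, adjusted p = 0.225 by edgeR), and by 0.65 (SE 0.176, adjusted p = 0.198) under vehicle. Ciita, the regulator of class II genes, did not pass and had means of 2.96, 2.37, 1.93 and 2.20 CPM. H2-Ea-ps had 0 reads in every mouse. The list's median was 0.05, with 11 genes above 0 and 7 below.

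Of 20 genes of the interferon response, 3 passed, all higher in Tg2576 mice, averaged over the treatments, and the median was 0.15. Irf8, a transcription factor that microglia need, differed by 0.61 (SE 0.134, adjusted p = 0.0739 by edgeR) and Ifitm3, an antiviral membrane protein, by 0.59 (SE 0.176, adjusted p = 0.182). Bst2, which tethers viruses to the cell surface, differed by 0.61 (SE 0.207, adjusted p = 0.253 by edgeR). Stat2, a signal carrier of type I interferons, passed in the comparison under vehicle (0.25, SE 0.0791, adjusted p = 0.291 by edgeR). Summed over the list, the levels were 451 to 495 CPM in WT-Veh, 437 to 504 CPM in WT-DHA, 442 to 494 CPM in Tg2576-Veh and 456 to 512 CPM in Tg2576-DHA mice, and all groups overlapped.

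Markers of microglia also differed between the genotypes. Of 12 plaque-associated microglial genes, 8 passed for genotype averaged over the treatments, all higher in Tg2576 mice, with a median of 0.92. Cst7, an inhibitor of lysosomal proteases, had means of 1.19, 0.917, 9.85 and 9.50 CPM in WT-Veh, WT-DHA, Tg2576-Veh and Tg2576-DHA mice (3.21, SE 0.386, adjusted p = 0.00457 by edgeR). Cd68, a lysosomal membrane protein of phagocytes, differed by 0.99 (SE 0.143, adjusted p = 0.00884 by edgeR). Of 10 homeostatic microglial genes, 5 passed, also higher, with a median of 0.31. Among them were Gpr34, Csf1r, C1qa and Cx3cr1, with differences of 0.29 for Csf1r to 0.96 for Gpr34. Summed, these 10 were at 365 to 419 CPM in WT-Veh, 312 to 378 CPM in WT-DHA, 355 to 517 CPM in Tg2576-Veh and 401 to 560 CPM in Tg2576-DHA mice. The 12 plaque-associated genes summed to 2295 to 2982, 2454 to 3301, 2913 to 3390 and 2718 to 3391 CPM in these groups, and Clec7a was at 0 in some mice. Abundant genes weigh most in these sums: 1 gene of the list reached 90450 reads in a mouse, and Cst7 at most 334. The sums thus say little about the scarcer genes. Under vehicle, 4 plaque-associated genes (median 0.73) and 0 homeostatic genes (median 0.18) passed, beside 3.09% of all genes. Under DHA, 6 (median 0.91) and 5 (median 0.47) passed, beside 1.75% of all genes. The 10 MHC genes had medians of 0.69 and 0.41. For the interaction, 9 plaque-associated and 10 homeostatic genes were above 0, and 9 of the 10 MHC genes were below 0. The part of microglia in the differences of the 10 MHC genes was not tested.

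Markers of lymphocytes and dendritic cells were read to different depths. Of 12 markers of T and NK cells, 4 were tested and 8 had no read in some mice, among them Cd3d, Cd3e and Cd3g of the T cell receptor complex. Summed, they were at 3.64 to 4.66 CPM in WT-Veh, 3.62 to 5.48 CPM in WT-DHA, 3.06 to 5.12 CPM in Tg2576-Veh and 3.84 to 5.11 CPM in Tg2576-DHA mice, mostly from Lck. Of 7 markers of B and plasma cells, Cd79b and Ms4a1 were among those with no read in some mice, and the summed levels were 27.1 to 49.2, 24.1 to 51.4, 23.8 to 43.9 and 18.2 to 36.7 CPM, mostly from Ighm. Of 8 markers of dendritic cells, Xcr1 and Ccr7 had no read in some mice, and the summed levels were 25.7 to 28.1, 23.2 to 28.2, 22.1 to 26.8 and 20.2 to 23.3 CPM, mostly from Flt3 and Zbtb46. None of these lists had a gene past the threshold in any comparison.

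Border tissues varied more. The 7 markers of perivascular macrophages, which express class II, summed to 4.25 to 5.34 CPM in WT-Veh, 3.64 to 6.52 CPM in WT-DHA, 3.90 to 10.3 CPM in Tg2576-Veh and 5.57 to 13.996 CPM in Tg2576-DHA mice. All 7 were above 0 for genotype averaged over the treatments (median 0.77) and 0 passed. Pf4 and Ms4a7 had no read in some mice. The 6 markers of leptomeninges summed to 26.04 to 54.3, 33.3 to 71.8, 22.01 to 99.8 and 38.0 to 101.7 CPM. All 6 were above 0 for genotype averaged over the treatments (median 0.59), beside 4 of 4 class II genes (median 0.61), and 0 passed. The part of these border tissues in the differences of the 10 genes was not tested. The 5 red blood cell genes summed to 92.7 to 537, 147 to 957, 172 to 385 and 163 to 734 CPM, with 0 past it. Of 6 endothelial markers, Slco1a4, an organic anion transporter of the blood-brain barrier, passed (0.33, SE 0.105, adjusted p = 0.212 by edgeR), with summed levels of 129 to 183, 138 to 163, 150 to 200 and 130 to 159 CPM. Of 8 markers of hippocampal neurons, all 8 were below 0 for genotype (median -0.13) and 2 passed, Wfs1 of CA1 neurons (-0.27, SE 0.0644, adjusted p = 0.0993 by edgeR) and Prox1 of the dentate gyrus (-0.27, SE 0.0895, adjusted p = 0.238).

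The choroid plexus markers were spread the most. Summed, they ranged from 88.95 to 3713 CPM in WT-Veh, 60.96 to 5816 CPM in WT-DHA, 141 to 3157 CPM in Tg2576-Veh and 3093 to 5143 CPM in Tg2576-DHA mice, so that all 3 Tg2576-DHA mice were high. No marker of the 6 was at 0 in any mouse. The high sums came mostly from Ttr, at 5598 of the 5816 CPM in WT-DHA replicate 3. WT-DHA replicate 1 and WT-Veh replicate 2 had the lowest sums of both the choroid plexus markers and the class II genes. WT-DHA replicate 3, with the highest marker sum, had 11.9 CPM of class II, and WT-DHA replicate 2, with 350 CPM of markers, had 20.96 CPM. With the choroid plexus level as a covariate, a fit added after the data were seen, the average genotype difference fell to 0.17 for H2-Aa, 0.33 for H2-Ab1, 0.27 for H2-Eb1 and 0.59 for Cd74. For the class I genes it was 0.49 for B2m, which passed (adjusted p = 0.271 by edgeR), 0.48 for Psmb8, which did not (adjusted p = 0.371), 0.58 for H2-K1 and 0.70 for H2-D1. Under vehicle, the class II differences with this covariate were 0.77 for H2-Aa, 0.61 for H2-Ab1, 0.65 for H2-Eb1 and 1.03 for Cd74. Without the covariate they were 0.79, 0.67, 0.64 and 1.08. Under DHA, where the groups differed most in these markers, the class II differences became -0.43 for H2-Aa, 0.04 for H2-Ab1, -0.10 for H2-Eb1 and 0.15 for Cd74. Whether choroid plexus content set the class II levels was not tested.

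**Figure D4:**
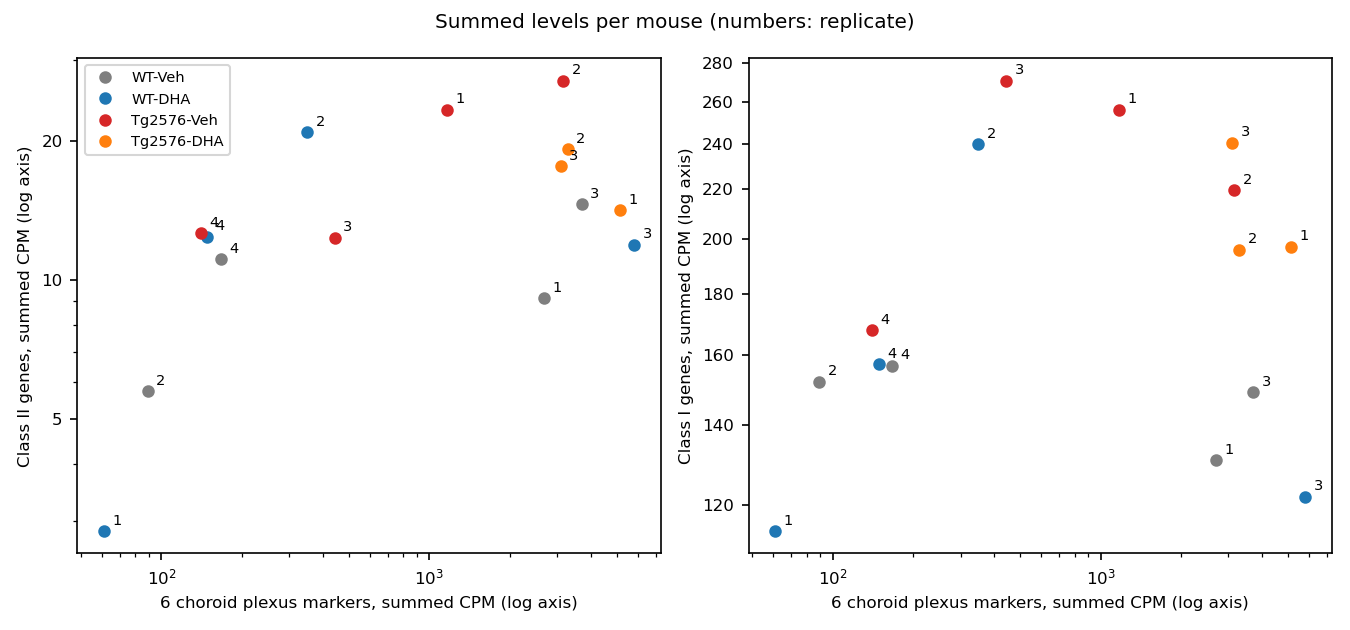
Summed CPM of the 6 choroid plexus markers (log axis) against the summed CPM of the 4 class II genes (left) and the 6 class I genes (right, both log axes) in each mouse, with replicate numbers. The lowest class II mouse, WT-DHA replicate 1 at 2.86 CPM, is also the lowest for the markers at 60.96 CPM, and mice high in the markers lie across the class I range.

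By the rule for likeness, the genes outside the 10 whose log2 CPM followed the class I mean most closely over the 15 mice were H2-Q4 (Pearson r 0.84, Spearman rho 0.84), C3ar1 (0.83, 0.83), Pik3ap1 (0.83, 0.82), Psmb9 (0.83, 0.83) and Ormdl1 (0.83, 0.73). H2-Q4 and Psmb9 lie in the MHC region too. For the class II mean they were Ttc12 (0.88, 0.78), Hspb1 (0.87, 0.71), Ass1 (0.86, 0.68), Ifi27l2a (0.86, 0.72) and Gstm2 (0.85, 0.78). These values are the highest of all genes tested and hold the differences between the groups, and they describe these mice alone.

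The MHC region of chromosome 17 held a further split between mice that did not follow the groups. Of 127 genes tested between 33951999 and 36121465, 21 (16.5%) had an SD within groups above the 95th percentile of all genes, and H2-Aa was among them. The mean levels of these 21 ran from 0.310 to 23.3 CPM. Their SDs were not compared with those of genes of like level. H2-T22, a class I-like gene named here after its values were seen, was at 11.1, 22.9, 13.6 and 2.83 CPM in WT-Veh mice and at 3.47, 16.1, 3.15 and 10.6 CPM in WT-DHA mice. It was at 3.57, 21.4, 23.2 and 15.03 CPM in Tg2576-Veh mice and at 22.4, 2.69 and 3.64 CPM in Tg2576-DHA mice. Low, middle and high levels thus occurred within groups. C4a, a complement gene also named after its values were seen, was at 23.2, 5.89, 20.6 and 29.0 CPM in WT-Veh mice, at 26.9, 18.1, 32.6 and 21.4 CPM in WT-DHA mice, at 40.8, 6.39, 9.27 and 26.1 CPM in Tg2576-Veh mice and at 9.17, 34.5 and 45.7 CPM in Tg2576-DHA mice. The 4 mice highest for H2-T22 were the 4 lowest for C4a.

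Among the WT mice, the 3 with the lowest H2-D1 (WT-DHA replicate 3, WT-DHA replicate 1 and WT-Veh replicate 4, at 18.6, 21.9 and 22.6 CPM) also had the 3 lowest H2-T22 values. The Tg2576 mice did not show this: those at 2.69, 3.57 and 3.64 CPM of H2-T22 had H2-D1 at 44.1, 75.3 and 56.1 CPM. The other Tg2576 mice had H2-D1 at 46.4 to 86.6 CPM. For H2-K1 the lowest WT mice were again WT-DHA replicates 1 and 3 (18.2 and 21.2 CPM). WT-Veh replicate 4 (26.8 CPM) lay just above WT-Veh replicate 1 (26.02 CPM). With the H2-T22 level as a covariate, a fit added after the data were seen, the average genotype difference was 0.77 for H2-D1 (SE 0.220, adjusted p = 0.201 by edgeR), which passed the threshold. It was 0.45 for B2m (adjusted p = 0.204 by edgeR), which passed, and 0.47 for Psmb8 (adjusted p = 0.273) and 0.62 for H2-K1 (adjusted p = 0.378), which did not. MHC genes differ in sequence among mouse strains, and the reads were counted on the reference genome, that of C57BL/6J. Whether the mice carried different MHC haplotypes was not tested.

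**Figure D5:**
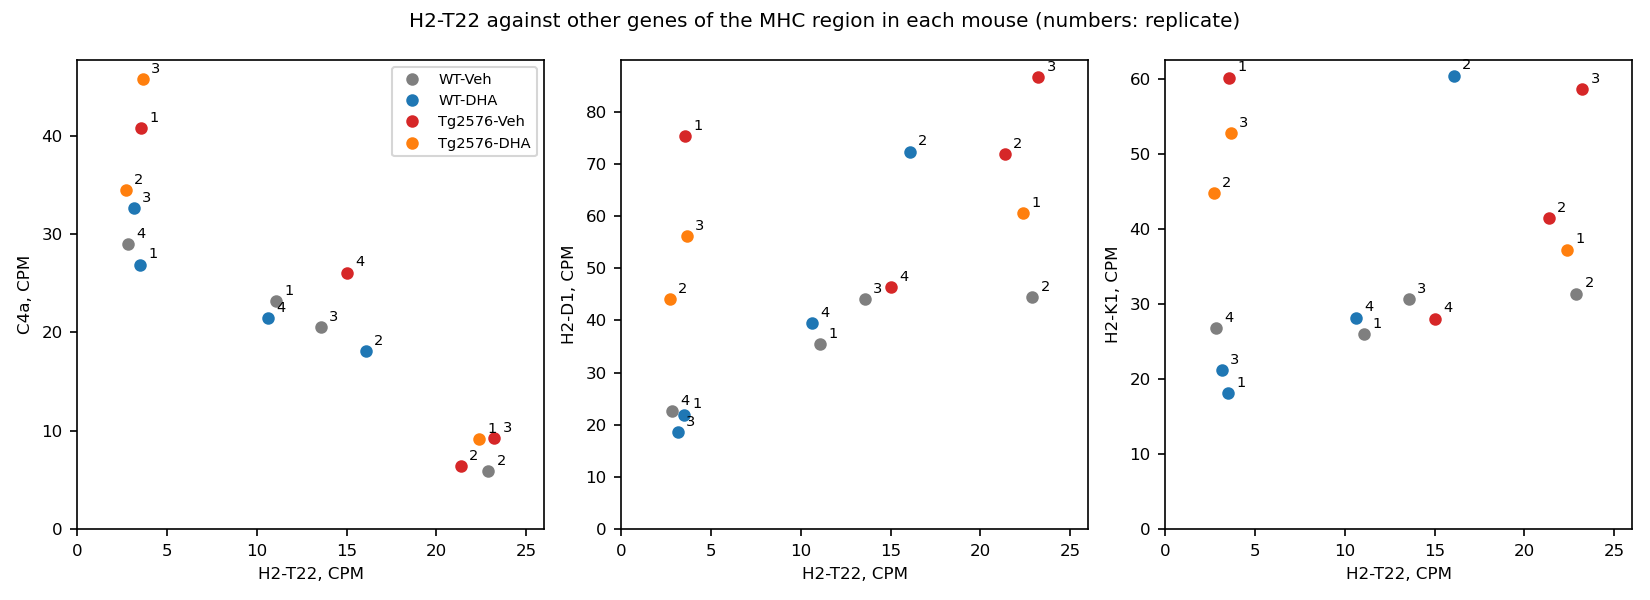
H2-T22 (CPM) against C4a (left), H2-D1 (middle) and H2-K1 (right, all CPM) in each mouse, coloured by group and marked by replicate number. The 4 mice with H2-T22 from 21.4 to 23.2 CPM have C4a from 5.89 to 9.27 CPM, and the 3 WT mice lowest in H2-D1 (18.6 to 22.6 CPM) are also the 3 lowest WT mice in H2-T22. Tg2576 mice with low H2-T22 (2.69 to 3.64 CPM) have H2-D1 from 44.1 to 75.3 CPM.

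A list of 55 other genes of the region without a role in antigen presentation was looked up as well. For genotype averaged over the treatments, 22 were above 0 and 33 below, with a median of -0.02 and 2 past the threshold. Under vehicle 37 were above 0 and 18 below (median 0.05), and under DHA 10 were above and 45 below (median -0.10). For DHA, 42 were above 0 and 13 below in WT mice, and 17 above and 38 below in Tg2576 mice. For the interaction 6 were above 0 and 49 below. In these last 3 comparisons and in that under vehicle, most of the 55 lay on the side of 0 where most of the 10 genes lay, with smaller medians. Clic1, a chloride channel protein, was higher in Tg2576 mice (0.47, SE 0.134, adjusted p = 0.166 by edgeR) and Abcf1, a translation factor, was lower (-0.17, SE 0.0564, adjusted p = 0.238). For DHA averaged over the genotypes, Tnxb, an extracellular matrix protein, fell by 0.39 (SE 0.127) and Trim39, a ubiquitin ligase, fell by 0.21 (SE 0.0637), both with an adjusted p of 0.9998 by edgeR.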

How the data were processed

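Hippocampal RNA of 15 mice was sequenced, and the deposited files hold raw read counts per gene, produced by the authors using featureCounts 1.6.0 with GENCODE M25 exons (GRCm38). STAR 2.6.1c and FastQC 0.11.8 are named in the submitters' processing notes. For the libraries, the labels name a SMARTER kit and the paper a TruSeq Stranded kit. Symbols came from GENCODE M21 and were found for 55141 of 55401 genes.

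From these counts, edgeR 4.0.16 (R 4.3.3) kept 19536 genes with filterByExpr (minimum count 10), scaled libraries by TMM (factors 0.961 to 1.03) and fitted a robust quasi-likelihood model with 1 coefficient per group over all 15 mice (common biological coefficient of variation 20.1%). Of the 7 two-sided comparisons, 4 were between 2 groups, the others being the interaction and both averaged effects. A gene passed the threshold where its unadjusted p was below 0.01, as in the study's methods, with Benjamini-Hochberg adjusted p over all genes tested. SEs were derived from F and the fold change, and 95% intervals use the t distribution with the degrees of freedom of the fit. Exact two-sided permutation tests used log2 CPM with a prior count of 2; they cannot go below 0.0286 with 4 mice against 4 or 0.0571 with 4 against 3, and averaged effects were permuted within strata (2450 rearrangements). P-values measure the spread between mice. CPM and RPKM were computed here after TMM scaling, with the exon lengths of the files.

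The 10 genes, the other gene lists, the tests and the alternatives were chosen with earlier results of these data known. Named genes are the 10, at most 4 genes of each other list with the lowest p among those under 0.01, at most 2 of each marker list by mean CPM, and for each class the 5 genes most like its mean; others are named where a count or a regulator is discussed, and H2-T22, C4a, Psmb9, Nlrc5, Ciita and Lck were chosen after their values were seen. Alternatives were DESeq2 1.42.0, limma-voom (limma 3.58.1), no TMM factors, no filter, at least 10 counts in every mouse, 2 groups alone, a non-robust fit, a block for replicate number, a prior count of 0.5 and each mouse left out. The replicate numbers were not taken to pair the mice. Of 21 same-numbered pairs, 4 had deviations correlated above 0.1. Correlations ran from -0.244 to 0.213 in these pairs and from -0.235 to 0.230 in pairs with different numbers. The model was tested on simulated counts, in which 2-fold changes were often missed at low levels in comparisons of 2 groups, so a gene that did not pass is not shown to be unchanged. Covariates for the choroid plexus and H2-T22 levels were chosen after seeing the data. Genes whose reads map to several places are undercounted by the authors' settings. Single values of some marker genes are not reported here. Figures used Python 3.11.15 and matplotlib 3.10.9.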

Additional observations from a re-analysis of the deposited data

Results flagged for a closer look

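In 4 of the 30 groups of 4 mice looked at over the 10 genes, 1 mouse stood apart from the other 3 by Dixon's test at the 95% level, which flags about 1 in 20 groups by chance. B2m was at 86.2 CPM in WT-Veh replicate 4, above the 50.5 to 56.6 CPM of the other WT-Veh mice. Tap1 was at 18.5 CPM in Tg2576-Veh replicate 1, above the 5.75 to 7.64 CPM of the others. Psmb8 was at 2.39 CPM in WT-Veh replicate 1, below the 3.04 to 3.14 CPM of the others. H2-Aa was at 0.193 CPM (4 reads) in WT-Veh replicate 2, below the 1.98 to 2.30 CPM of the others. Without WT-Veh replicate 4, the average genotype difference of B2m rose from 0.44 to 0.55 (adjusted p = 0.0730 by edgeR). Groups of 3 mice were not looked at in this way.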

How the results depend on the processing

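The DHA comparisons within each genotype and on average, and the interaction, had 0 of the 10 genes called in the main analysis and under all alternatives that could be fitted. For genotype under vehicle, 0 were called, beside 604 of all genes. DESeq2 called 3 (828 of all genes), and so did a fit of the 2 groups alone (493). Limma-voom (612 of all genes), no TMM factors (572) and at least 10 counts in every mouse (537) each gave 1. A replicate block (661) and H2-T22 as a covariate (593) also gave 1 each. Leaving out 1 mouse gave 0 to 3. The count was 3 without Tg2576-Veh replicate 4 (B2m, Tap1 and Psmb8, beside 400 of all genes). It was also 3 without WT-DHA replicate 2 (H2-K1, H2-D1 and B2m, beside 578). For genotype under DHA, 0 were called, beside 342 of all genes. Leaving out 1 mouse there gave 0 to 3, with 3 without WT-DHA replicate 2 (338 of all genes). For the average genotype effect, 2 were called, beside 753 of all genes. Without a filter 0 were called (883 of all genes). The replicate block (724) and the choroid plexus covariate (556) each gave 1. Where 2 were called they were not always B2m and Psmb8. Limma-voom (790 of all genes) and the H2-T22 covariate (721) called H2-D1 and B2m. Leaving out WT-DHA replicate 1 (586) gave B2m and Cd74. Leaving out 1 mouse gave 0 (without Tg2576-DHA replicate 3, 719 of all genes) to 4 (without WT-DHA replicate 2, 676). It gave 1 without any one of WT-Veh replicates 1, 2, 3 and 4, WT-DHA replicates 3 and 4 or Tg2576-Veh replicate 3. In those fits 508 to 765 of all genes were called. The replicate block left all other counts as they were. The replicate numbers were not taken to pair the mice. With at least 10 counts in every mouse, H2-Aa was not tested, and interactions and averages could not be fitted from 2 groups. No called difference changed direction. With a prior count of 0.5 the differences in log2 CPM moved by less than the spread within groups. Where not stated, the cause of a change was not tested. Depth limits the class II chains most, with as few as 4 reads in a mouse.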
